A study of Macaca radiata with 6 samples.

Results

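Inhibin, bone morphogenetic protein (BMP) and growth differentiation factor 15 (GDF15) signalling was described through 7 genes, INHA, GDF15, BMP2, BMP4, ACVR2B, TGFBR3 and ID1, in corpus luteum tissue of the bonnet monkey, Macaca radiata. All probe sets whose single annotated symbol was one of these names were taken, which gave 11 of the 52865 probe sets on the array and 7 of its 14133 gene symbols. GDF15 and BMP2 had 2 probe sets each, TGFBR3 had 3 and the other genes had 1. Each probe set is described separately, because different probe sets of a gene read different parts of its transcripts.

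The corpus luteum is the gland that forms from the ovulated follicle and secretes progesterone. Female monkeys on day 10 of the luteal phase received either prostaglandin F2-alpha (PGF2alpha), which brings about regression of the gland, as 3 intramuscular injections at 59 µg/kg body weight, or phosphate-buffered saline (PBS) as vehicle, and the tissue was taken 24 h later. Each group had 3 arrays, numbered 1 to 3 for PGF2alpha and 4 to 6 for vehicle. The labels give 3 monkeys for a group but tie no array to an animal, and nothing states that the arrays of a group are separate animals, so the p-values reflect the scatter among 6 samples, which may be technical. The arrays carry rhesus macaque probes, and ages were not given in the sources used here.

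Ligands of the transforming growth factor beta (TGF-beta) superfamily are dimers that bring type I and type II serine/threonine kinase receptors together on the cell surface. BMP ligands then act through one branch of SMAD proteins, whose classic target is the ID1 gene, and activins and TGF-beta act through another. Inhibin pairs the alpha subunit encoded by INHA with an activin beta subunit and blocks activin by occupying its type II receptors, with the co-receptor betaglycan (TGFBR3) raising its affinity. Luteal cells of primates are a major source of circulating inhibin A, and BMPs are known to restrain luteinisation of granulosa cells. GDF15 is a distant member of the superfamily that many cells release under stress.

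Values are linear signals per probe set made by the authors with MAS5, an Affymetrix algorithm that weighs each matching probe against its mismatch partner. Group differences are given as PGF2alpha minus vehicle on the log2(signal + 40) scale, which understates changes of low signals. A probe set was called where the adjusted p of limma, Benjamini-Hochberg over all 26944 tested probe sets, was under 0.05. All 11 probe sets passed the filter on low signal, which asked for a signal at or above the median of the array in at least 3 of the 6 arrays. The second GDF15 probe set, MmuSTS.3214.1.S1_at of BMP2 and the ACVR2B probe set passed through their treated arrays, since 2, 2 and 1 of their 3 vehicle arrays lay at or above the median. The filter could not have kept these 3 on the vehicle arrays alone.

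The median signal of the 6 arrays lay between 115 and 134. As a measure of RNA quality, the log2 ratio of the 3-prime over the 5-prime control probe set lay between 0.576 and 1.17 in vehicle and between 0.791 and 0.831 after PGF2alpha for ACTB. For GAPDH it lay between 0.493 and 0.789 and between 0.477 and 0.749 (exact permutation test, two-sided, p = 1 for each gene, where the smallest p for 3 against 3 arrays is 0.1). Scanner files placed PGF2alpha replicates 1 and 3 and vehicle replicates 5 and 6 in hybridisation run 1, and PGF2alpha replicate 2 and vehicle replicate 4 in run 2. Markers of luteal steroidogenic cells were present, and all 7 of those the array names passed the filter, 1 of them lower and 0 higher after PGF2alpha. Their summed signal lay between 135500 and 169500 in vehicle and between 66050 and 124800 after PGF2alpha. The 13 macrophage and monocyte markers were all tested, with 7 higher and 0 lower, and their summed signal went from between 21180 and 35890 to between 52410 and 86210. Among the 7, each by its probe set of highest mean, other tested probe sets had log2 differences of -0.16 for CD68 and of 2.05 and 0.47 for MRC1. A large part of each macrophage sum came from LYZ, which was not called (limma adjusted p = 0.104). LYZ read 21140, 12460 and 19950 in vehicle and 24760, 52130 and 28130 after PGF2alpha. Neutrophil markers summed to between 3873 and 7049 in vehicle and to between 12890 and 31700 after PGF2alpha, with 4 of the 5 tested higher and 0 lower, and 5 others below the filter. LCN2 made up most of the vehicle sums, at 3056, 6486 and 2954 in replicates 4 to 6. MARCO among the macrophage markers and S100A8, S100A9 and MMP9 among the neutrophil markers passed the filter through their treated arrays, on which they were high. Of all 9980 genes tested 6.13% were called in either direction. Lymphocyte markers summed to between 5225 and 7011 and to between 18130 and 32920, mostly from 1 gene, GNLY, which read 21590, 30860 and 15560 after PGF2alpha and was the 1 of 3 tested that rose. The log2 difference of GNLY was 3.01, but its other tested probe set stood at 0.47 (limma adjusted p = 0.232). GZMA stood at -0.85 (limma adjusted p = 0.0584) and CD4 at 0.39 (adjusted p = 0.426), and 4 others lay below the filter. Sums of endothelial markers overlapped, at 25740 to 29200 in vehicle and 24150 to 35200 after PGF2alpha. Fibroblast sums (73700 to 98060 in vehicle, 95680 to 116000 after PGF2alpha), pericyte sums (14740 to 16590 and 12370 to 18610) and follicle and stroma sums (7623 to 8667 and 6368 to 8281) overlapped as well. Of 10 endothelial markers tested 1 was higher, CLDN5 (0.90, limma adjusted p = 0.0266), and 0 lower. Of 7 fibroblast markers tested 1 was higher, DCN (0.64, limma adjusted p = 0.0421), and 0 lower. Other tested DCN probe sets stood at 0.89, 0.87, 1.45 and 0.12. Of 5 tested pericyte markers and 5 tested follicle and stroma markers 0 were called. No marker was listed at 0. In whole tissue, fewer cells of a type and less RNA per cell cannot be told apart, and the part of these cell types in the results that follow was not tested.

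After PGF2alpha the ligand genes GDF15 and BMP4 rose, and the co-receptor gene TGFBR3 and the BMP target ID1 fell, each by 1 probe set. The ligand gene BMP2 and the type II receptor gene ACVR2B were also called higher, but by probe sets that passed the filter through the treated arrays, on which they were high, and neither call held without the filter (limma adjusted p = 0.064 and 0.0841). Without the filter GDF15 was the 1 gene of the 7 still called. INHA read lower on every treated array than on any vehicle array but did not pass the test. Of the 11 probe sets 6 were called, 4 higher and 2 lower, where 5.01% of all tested probe sets were called, 3.02% higher and 1.99% lower. All 7 genes were chosen with earlier results of these data known, and 2 of the 4 higher calls are those of BMP2 and ACVR2B. For both reasons this count is a description and no test against the share of all probe sets. The groups did not overlap in 10 of the 11 probe sets, where this held for 26.8% of all tested probe sets. These 10 include the second GDF15 probe set, MmuSTS.3214.1.S1_at of BMP2 and the ACVR2B probe set, which passed the filter through their treated arrays. For this reason and because of the choice of genes, the count of 10 is a description as well. The 6 probe sets of GDF15, BMP2, BMP4 and ACVR2B had log2 differences from 1.11 to 1.59 and the 5 of INHA, TGFBR3 and ID1 from -1.08 to -0.40, so that a median over all 11 (1.11, against -0.0281 over all tested probe sets) describes neither side.

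**Figure D1:**
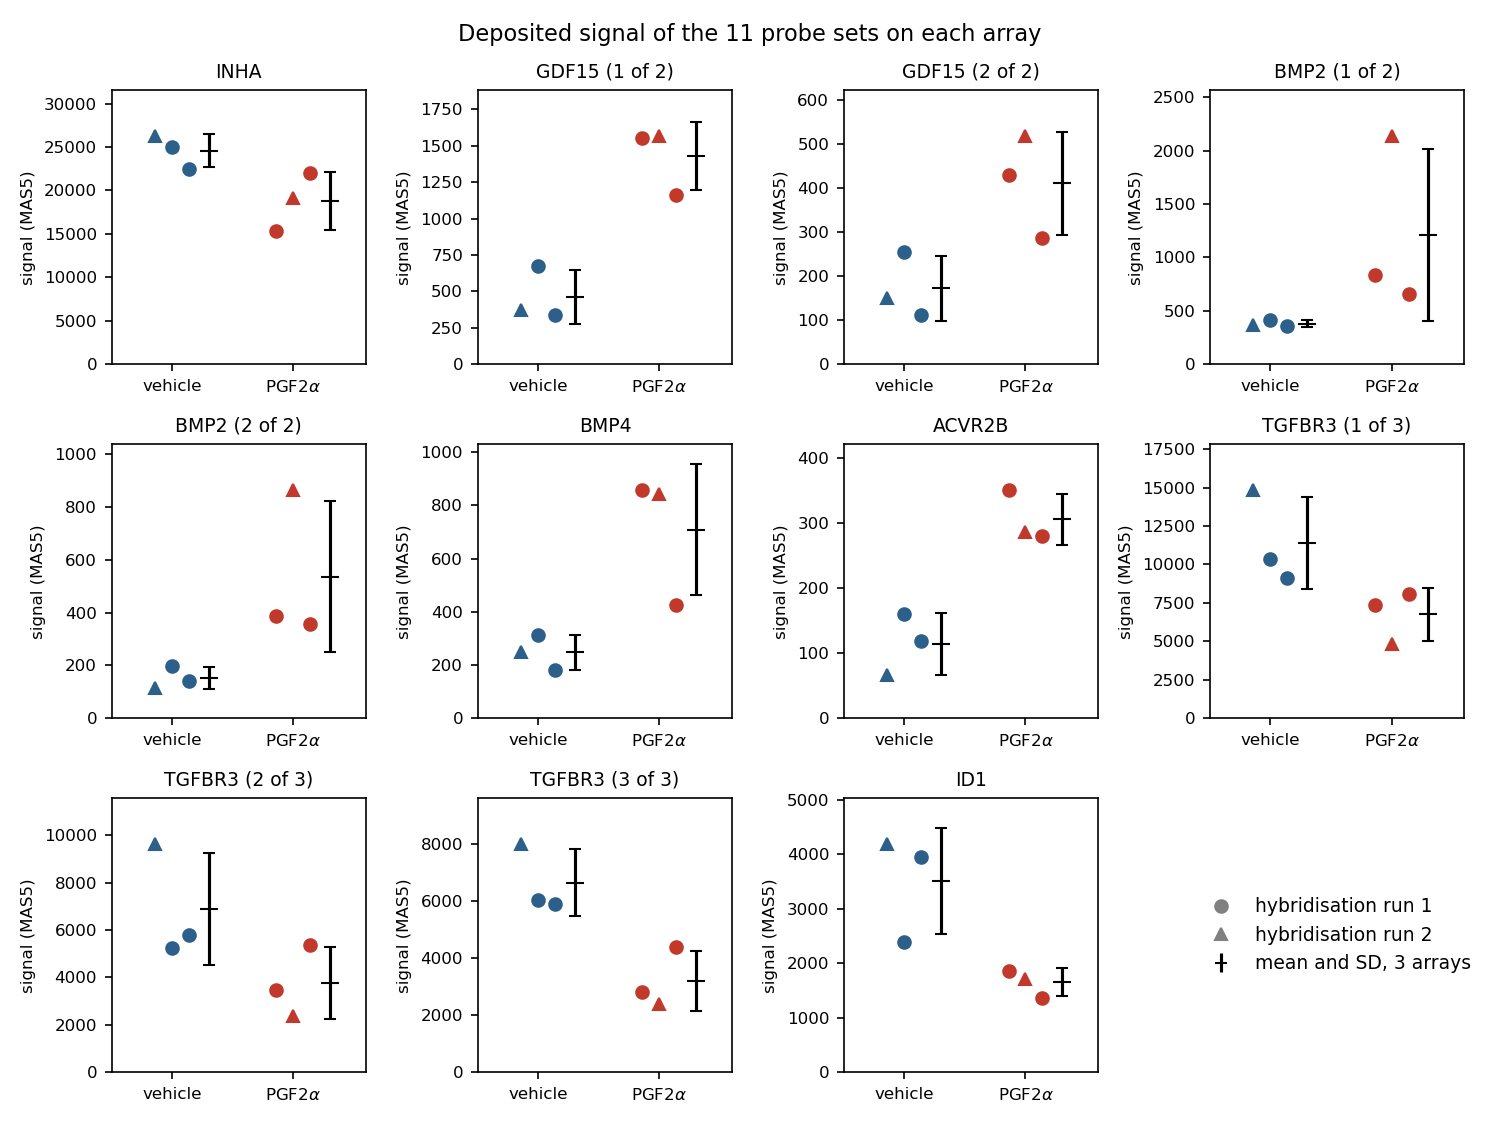
Deposited MAS5 signal (linear axis from 0) of each probe set on each array, by group, with circles for hybridisation run 1, triangles for run 2, and the mean with its SD over 3 arrays in black; probe sets of a gene are numbered by falling mean signal. The groups are apart in all panels other than the second TGFBR3 probe set, and vehicle replicate 4 (the blue triangle) holds the highest vehicle signal of all 3 TGFBR3 probe sets.

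GDF15 showed the smallest p of the 7 genes. Its first probe set, the one of higher mean signal, read 375.1, 674.4 and 338.9 in vehicle replicates 4 to 6 and 1552, 1567 and 1159 in PGF2alpha replicates 1 to 3. Every treated array lay above every vehicle array, and the highest vehicle value, in replicate 5, stayed below the lowest treated value, in replicate 3. The mean went from 463 ± 184 to 1430 ± 231 (SD, n = 3), a log2 difference of 1.59 (SE 0.251, 95% interval 1.02 to 2.16, limma adjusted p = 0.0123), which ranked 271 of 26944 by p. The difference was 1.41 within run 1 and 1.95 within run 2. The call held under 14 of 16 alternatives. Leaving out PGF2alpha replicate 1 or 2 ended it, at adjusted p-values of 0.0516 and 0.0611.

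The second GDF15 probe set, MmugDNA.27443.1.S1_at, put the 3 vehicle arrays in the same order. It read 151.3, 254.3 and 110.9 in vehicle and 430.2, 518 and 286 after PGF2alpha, so the groups again did not overlap. The log2 difference was 1.11 (SE 0.295, limma adjusted p = 0.0651) and did not pass. Runs 1 and 2 gave 0.89 and 1.54. It passed under 3 of 15 alternatives. The log2 values of both probe sets had a Pearson r of 0.969 over the 6 arrays, a description in which the points share their libraries.

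BMP2, a ligand of the BMP type I receptors, was read by 2 probe sets. MmuSTS.3214.1.S1_at read 115.3, 195.9 and 141.4 in vehicle replicates 4 to 6 and 388.3, 863.8 and 354.8 in PGF2alpha replicates 1 to 3. All treated values lay above all vehicle values, with PGF2alpha replicate 2 far above the others. The group means were 151 ± 41.1 in vehicle and 536 ± 285 after PGF2alpha (SD, n = 3), and the log2 difference was 1.51 (SE 0.324, 95% interval 0.78 to 2.24, limma adjusted p = 0.033). The other BMP2 probe set, MmugDNA.35700.1.S1_at, read 365, 416.5 and 359.4 in vehicle and 836.3, 2137 and 658.4 after PGF2alpha. Its vehicle arrays were close together, and PGF2alpha replicate 2 again stood highest. Its log2 difference of 1.39 (SE 0.362) did not pass (limma adjusted p = 0.0604), though a fit that blocked on the run called it (adjusted p = 0.0388).

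The size of the BMP2 difference was not the same in both hybridisation runs. Within run 1 it was 0.99 for the called probe set and 0.87 for the other, and within run 2 it was 2.54 and 2.43. Run 2 holds 1 array of each group, so the run and the individual arrays cannot be told apart. The called probe set passed under 8 of 15 alternatives, and its adjusted p lay between 0.0568 and 0.106 when any 1 array other than PGF2alpha replicate 3 was left out. Pearson r between the probe sets was 0.976 over the 6 arrays.

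BMP4, a close paralog of BMP2, rose as well. Its probe set, MmuSTS.3239.1.S1_at, read 248.2, 311.9 and 179.4 in vehicle replicates 4 to 6 and 857.5, 843.5 and 425.1 in PGF2alpha replicates 1 to 3. The groups did not overlap, and PGF2alpha replicate 3 lay nearest to the vehicle arrays. Vehicle averaged 247 ± 66.3 and PGF2alpha 709 ± 246 (SD, n = 3), a log2 difference of 1.35 (SE 0.287, 95% interval 0.70 to 2.0, limma adjusted p = 0.0321). Runs 1 and 2 gave 1.22 and 1.62. The call held under 9 of 16 alternatives and was lost, among others, without each array other than PGF2alpha replicate 3 (adjusted p from 0.0519 to 0.126).

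INHA, which encodes the alpha subunit shared by the inhibins, was not called. MmuSTS.95.1.S1_at read 26260, 25000 and 22460 in vehicle replicates 4 to 6 and 15280, 19140 and 21980 in PGF2alpha replicates 1 to 3. No treated array reached the lowest vehicle array, although PGF2alpha replicate 3 and vehicle replicate 6 nearly met. The means were 24600 ± 1930 and 18800 ± 3360 (SD, n = 3), a log2 difference of -0.40 (SE 0.151, 95% interval -0.74 to -0.06, limma adjusted p = 0.171). Values within runs 1 and 2 were -0.37 and -0.46, and no alternative gave a call (adjusted p from 0.0722 to 0.418). The unadjusted interval reaches from nearly no difference to -0.74. STAR, the cholesterol carrier of steroidogenic cells, fell by 0.67 on the log2 scale on the same arrays (limma adjusted p = 0.0497), a call that held under 6 of 16 alternatives (adjusted p up to 0.193). It was the 1 called of 7 luteal markers tested, of which 6 had a negative and 1 a positive log2 difference. A link between these markers and INHA was not tested.

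ACVR2B, one of the type II receptors that bind activins and several BMPs, was called higher from a low signal. MmugDNA.35523.1.S1_at read 65.62, 159.5 and 118 in vehicle replicates 4 to 6 and 350.5, 286.6 and 279.5 in PGF2alpha replicates 1 to 3. The treated arrays lay close together and above all vehicle arrays, of which replicate 4 was lowest. Means of 114 ± 47.0 in vehicle and 306 ± 39.1 after PGF2alpha (SD, n = 3) gave a log2 difference of 1.20 (SE 0.272, 95% interval 0.59 to 1.82, limma adjusted p = 0.0393). The difference was 0.99 within run 1 and 1.63 within run 2. Its call held under 8 of 15 alternatives, and its log2 difference moved between 0.77 and 1.41 over them. Without vehicle replicate 4, the lowest array, it was 0.95 (adjusted p = 0.088).

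TGFBR3 encodes betaglycan, the co-receptor that presents TGF-beta and inhibin to the signalling receptors. All 3 of its probe sets read lower after PGF2alpha, and the one that passed, MmugDNA.7149.1.S1_x_at, is of a kind that can cross-hybridise with other transcripts. That probe set read 8000, 6036 and 5914 in vehicle replicates 4 to 6 and 2802, 2398 and 4379 in PGF2alpha replicates 1 to 3. The groups were apart, with PGF2alpha replicate 3 highest among the treated arrays. The mean fell from 6650 ± 1170 to 3190 ± 1050 (SD, n = 3), and the log2 difference was -1.08 (SE 0.227, 95% interval -1.59 to -0.57, limma adjusted p = 0.0308). The call held under 9 of 16 alternatives.

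The other 2 TGFBR3 probe sets did not pass. MmuSTS.2879.1.S1_at read 14840, 10380 and 9090 in vehicle and 7337, 4798 and 8112 after PGF2alpha, without overlap, with a log2 difference of -0.76 (SE 0.235, limma adjusted p = 0.1). MmugDNA.7149.1.S1_at read 9626, 5244 and 5806 in vehicle and 3474, 2387 and 5382 after PGF2alpha, with a log2 difference of -0.90 (SE 0.307, limma adjusted p = 0.135). Here PGF2alpha replicate 3 lay above vehicle replicate 5, the single overlap among the 11 probe sets. Within run 1 the 3 probe sets gave -0.76, -0.33 and -0.35, in the order named, and within run 2 they gave -1.72, -1.62 and -1.99. Vehicle replicate 4, the vehicle array of run 2, was the highest vehicle array in all 3. Pearson r between pairs of TGFBR3 probe sets lay between 0.935 and 0.961 over the 6 arrays.

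ID1 encodes an inhibitor of basic helix-loop-helix transcription factors and is induced by BMP signalling in many cells. MmugDNA.38963.1.S1_at read 4189, 2392 and 3960 in vehicle replicates 4 to 6 and 1864, 1714 and 1359 in PGF2alpha replicates 1 to 3. The groups did not overlap, though vehicle replicate 5 stood well below the other vehicle arrays. The mean fell from 3510 ± 978 to 1650 ± 260 (SD, n = 3), and the log2 difference was -1.05 (SE 0.227, 95% interval -1.56 to -0.53, limma adjusted p = 0.0341). Within runs 1 and 2 it was -0.93 and -1.27. Its call was lost under 8 of 16 alternatives, scaling to one median among them (adjusted p = 0.0594). ID1 stood lower on the same arrays on which the BMP2 and BMP4 transcripts stood higher.

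**Figure D2:**
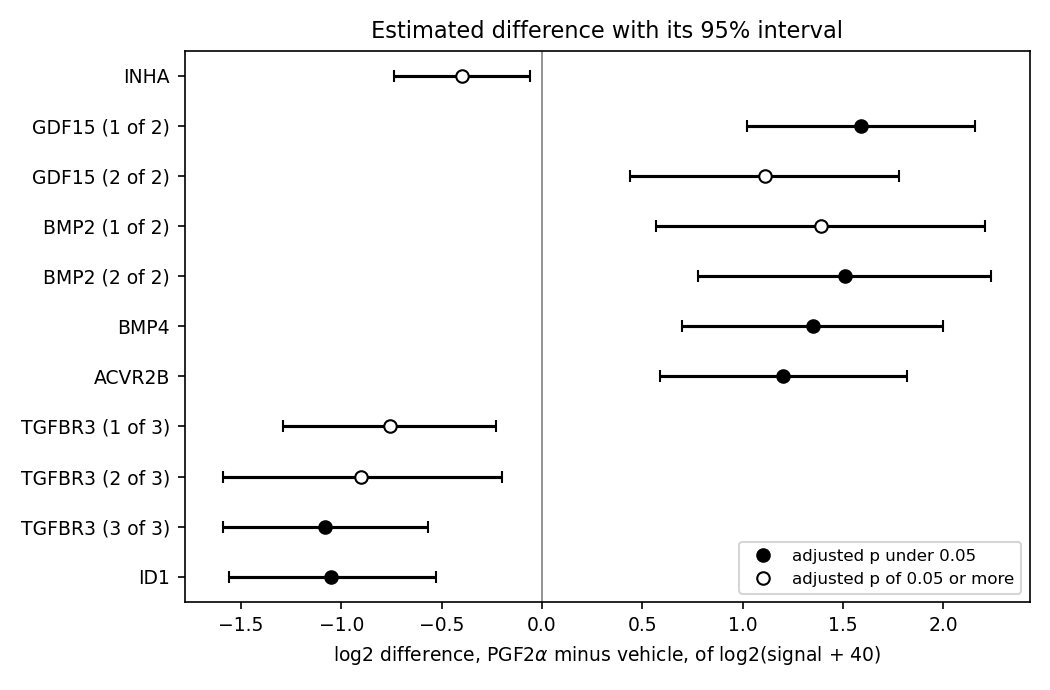
Log2 difference (PGF2alpha minus vehicle, log2(signal + 40) scale) of each probe set with its 95% interval from limma, not adjusted for the number of probe sets; filled points were called at an adjusted p under 0.05. None of the 11 intervals crosses 0, the points run from -1.08 for a TGFBR3 probe set to 1.59 for the first GDF15 probe set, and 6 of the 11 points are filled. An interval that leaves out 0 equals an unadjusted p under 0.05 in limma, which 21% of all tested probe sets had. The 11 were chosen with earlier results of these data known, so the 2 shares are not a test.

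The calls rested on few arrays, here and over the whole table. Without PGF2alpha replicate 1 or without PGF2alpha replicate 2, limma called 0 of the 11 probe sets, with 10 of 11 at an unadjusted p under 0.05 in each case. Over all probe sets the calls then came to 364 (1.35%) and 223 (0.828%), with 17.1% and 16.4% at an unadjusted p under 0.05. The 11 were chosen with earlier results of these arrays known, and some passed the filter through their treated arrays. Their share at an unadjusted p under 0.05 is therefore a description and no test. Without vehicle replicates 4, 5 and 6 it called 1, 4 and 1 of the 11 probe sets, and 2.3%, 2.35% and 1.61% of all. Without PGF2alpha replicate 3 it called 7 of the 11, and 7.06% of all. Without the filter on low signal, and with eBayes without a variance trend, 1 was called, the first GDF15 probe set in both cases. With the run as a block 7 of the 11 and 4.98% of all were called. No probe set changed sign under any alternative.

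One of the treated arrays is always the nearest to the vehicle arrays, and in 10 of the 11 probe sets this was PGF2alpha replicate 3, the exception being ID1, where replicate 1 was nearest and replicate 3 was lowest. Over all 1351 called probe sets replicate 3 was the nearest treated array in 70.8%, and over the 7211 tested probe sets whose groups did not overlap it was so in 51.6%. The margin was small in ACVR2B, where replicates 2 and 3 read 286.6 and 279.5, and in BMP2 replicates 1 and 3 lay closer to each other than to replicate 2. The summed luteal marker signal of replicate 3, 124800, was also the nearest to vehicle, against 66050 and 70370 in PGF2alpha replicates 1 and 2. Its neutrophil and lymphocyte sums, 12890 and 18130, were the nearest as well. For the macrophage sum replicate 1 was nearest, at 52410 against 58400 in replicate 3. Among vehicle arrays, replicate 5 was nearest to the treated arrays in 8 of the 11 probe sets, where 31.5% of called probe sets had it nearest.

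**Figure D3:**
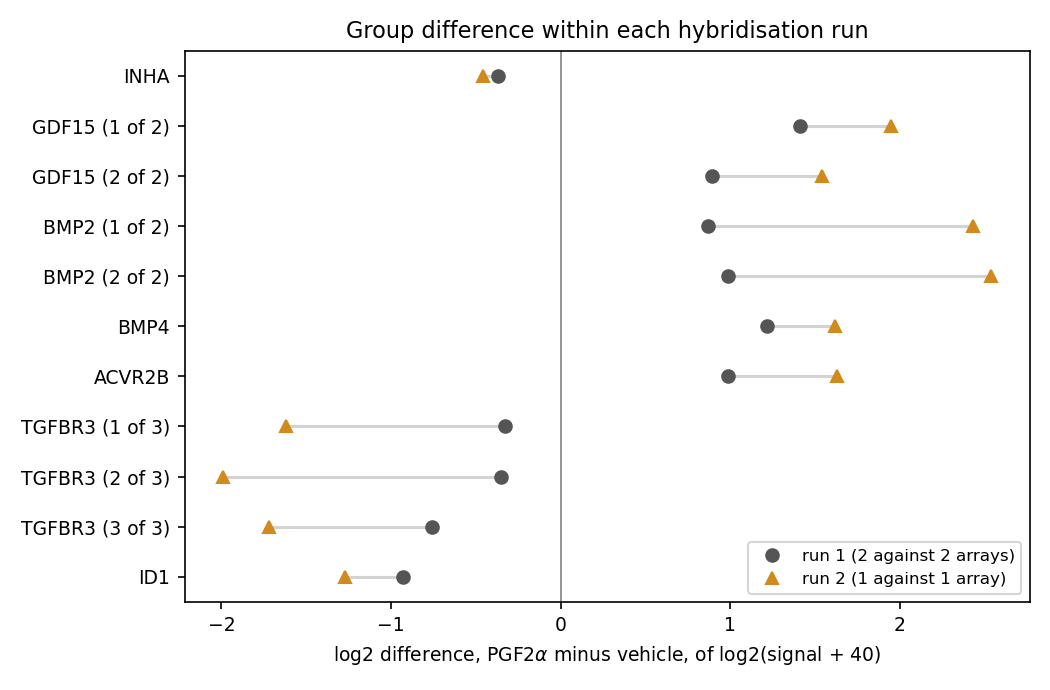
Log2 difference (PGF2alpha minus vehicle) of each probe set within hybridisation run 1 (circles, 2 against 2 arrays) and run 2 (triangles, 1 against 1 array). Both runs give the same sign in all 11 probe sets, and the distance is widest for BMP2 and TGFBR3, as in 0.87 against 2.43 for the BMP2 probe set of higher mean. The share of all tested probe sets with the same sign in both runs was not computed.

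Other genes of the pathway were taken from lists by role, each gene as its tested probe set of highest mean. The lists held 123 genes, of which the array named 91 and 66 were tested, the 7 genes above included. Of the 59 others 5 rose and 0 fell (8.47% called), where 6.13% of all 9980 genes tested were called. The 5 were BAMBI, NBL1, TGFBI, CCN2 and PMEPA1. NBL1 is an antagonist of secreted BMPs, BAMBI a decoy receptor that is also a BMP target, and the other 3 are targets of the TGF-beta and activin branch.

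Among ligands, the other tested activin subunit was INHBA, the beta A subunit of activin A and inhibin A. It did not pass, with means of 11800 ± 6210 in vehicle and 5850 ± 2300 after PGF2alpha (SD, n = 3) and a log2 difference of -0.93 (limma adjusted p = 0.209, -0.80 by its other probe set). In the list of BMP and GDF ligands 6 of 16 genes named on the array were tested and 2 were called, GDF15 and BMP4, both higher. BMP2 is not counted there because its probe set of higher mean did not pass. The remaining 3 lay on the other side of 0 and did not pass, with BMP3 at -0.81 (adjusted p = 0.323), BMP6 at -0.65 (adjusted p = 0.405) and GDF6 at -0.74 (adjusted p = 0.686). The list median was 0.351, against -0.0175 over all genes tested, of which 6.13% were called. GDF15, BMP2 and BMP4 in this list were chosen with earlier results of these data known. Its count and median are therefore a description. Of the TGF-beta ligands, TGFB3 stood at 0.76 (adjusted p = 0.108) with no overlap between groups and TGFB1 at 0.20 (adjusted p = 0.636).

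Among type I and type II receptors ACVR2B was the gene called of 9 tested, and the list median was 0.0676. TGFBR2, the type II receptor for TGF-beta, had a log2 difference of 0.44 (limma adjusted p = 0.0901), the endothelial type I receptor ACVRL1 0.46 (adjusted p = 0.316) and the BMP type I receptor BMPR1B -0.40 (adjusted p = 0.297). ACVR2A, the paralog of ACVR2B, read 234 ± 15.0 in vehicle and 247 ± 23.0 after PGF2alpha (SD, n = 3), a log2 difference of 0.07 (SE 0.186, adjusted p = 0.881), and is named here after its values were seen.

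Among 5 tested co-receptors, each by its probe set of highest mean, BAMBI rose and 0 fell. TGFBR3 is one of the 5 and is not counted as lower there, because its called probe set is not the one of highest mean. BAMBI, a receptor-like protein without a kinase domain that dampens BMP and activin signalling, averaged 704 ± 188 in vehicle and 1940 ± 964 after PGF2alpha (SD, n = 3), a log2 difference of 1.34 (limma adjusted p = 0.0426, 0.88 within run 1 and 2.25 within run 2). It was called under 9 of 16 alternatives. Endoglin (ENG), a co-receptor of endothelial cells, stood at 0.58 (adjusted p = 0.0548) and RGMB, a BMP co-receptor, at 0.49 (adjusted p = 0.516). The other tested probe set of ENG stood at 0.25 (limma adjusted p = 0.562), and that of RGMB at 0.39 (adjusted p = 0.44).

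Of 6 tested extracellular antagonists, NBL1 rose and 0 fell. NBL1, a secreted protein of the DAN family that binds BMPs, averaged 348 ± 80.9 in vehicle and 762 ± 131 after PGF2alpha (SD, n = 3), a log2 difference of 1.05 (limma adjusted p = 0.0274, 1.12 and 0.91 within runs 1 and 2), and was called under 11 of 16 alternatives. FSTL3, which binds activin, had means of 1080 ± 509 and 3710 ± 1970 (SD, n = 3) and a log2 difference of 1.73 that did not pass (adjusted p = 0.0661), with 0.87 within run 1 and 3.44 within run 2. FSTL1 stood at 0.21 (adjusted p = 0.413), and its other 2 probe sets at 0.07 and -0.26. The activin-binding follistatin FST stood at -0.45 (adjusted p = 0.447), and its other tested probe set at -1.01 (adjusted p = 0.0851).

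None of the 14 tested SMADs and SMAD regulators passed, with a list median of -0.0393. At an unadjusted p under 0.05, limma gave 3 of the 14, where 24.4% of all genes tested had one. The closest was SMAD3, a transducer of TGF-beta and activin, at 0.67 (limma adjusted p = 0.0598). Its other tested probe sets stood at 0.52, 0.13 and 0.36 (adjusted p from 0.289 to 0.814). SMAD3 was followed by TGIF1 (0.55, adjusted p = 0.158), SKI (0.91, adjusted p = 0.17) and the ubiquitin ligase SMURF2 (-0.43, adjusted p = 0.326). The other SMURF2 probe sets stood at -0.08 and -0.04.

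Of 11 tested BMP target genes 1 fell, ID1, and 1 rose, BAMBI, with a list median of -0.235. The inhibitory SMAD6 and SMAD7 genes, classic feedback targets, were chosen after their values were seen and stood at -0.24 (limma adjusted p = 0.493) and 0.28 (adjusted p = 0.575). Further members closest to the threshold were MSX2 (-0.42, adjusted p = 0.167) and HAMP (-0.43, adjusted p = 0.313), and the ID1 paralog ID3, also named after its values were seen, stood at -0.32 (adjusted p = 0.313).

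Of the target genes of the TGF-beta and activin branch 3 of 7 tested were higher and 0 lower, with a median of 0.752. Over all 9980 genes tested 6.13% were called in either direction, and the median was -0.0175. The list was chosen with earlier results of these data known, so its count and median are a description. TGFBI, a matrix protein named for its induction by TGF-beta, rose from a mean of 1140 ± 326 in vehicle to 5680 ± 2130 after PGF2alpha (SD, n = 3), a log2 difference of 2.25 (limma adjusted p = 0.00618), and was called under 16 of 16 alternatives. CCN2, connective tissue growth factor, rose by 1.89 (adjusted p = 0.00963), but its other 2 tested probe sets read -0.26 (adjusted p = 0.308) and -0.41 (adjusted p = 0.381). PMEPA1, which limits TGF-beta signalling by binding SMADs, rose by 0.95 (adjusted p = 0.0366), and 2 of its 3 other probe sets were called in the same direction, at 1.20 and 1.36. The cell cycle inhibitor CDKN1A stood at 0.75 (adjusted p = 0.0553). TGFBI is also abundant in macrophages, whose marker sums were higher on the treated arrays as given above, and their part in its value was not tested.

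GDF15 is a known target of the integrated stress and p53 responses, and 0 of 9 tested genes of those responses passed in limma by their probe set of highest mean, with a median of 0.134 and 4 of the 9 at an unadjusted p under 0.05, beside the same 24.4% of all genes. Among them ATF3, a transcription factor of the stress response, had a log2 difference of 1.25 (adjusted p = 0.0878), with 0.12 by its other probe set, CDKN1A 0.75 and TRIB3 1.15 (adjusted p = 0.172). ATF4 and DDIT3, named after their values were seen, stood at -0.05 (adjusted p = 0.865) and 0.13 (adjusted p = 0.681). KLF6, an injury-induced transcription factor, stood at 0.69 (adjusted p = 0.124), while 3 of its 4 other tested probe sets were called higher, at 0.80, 0.82 and 0.98.

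**Figure D4:**
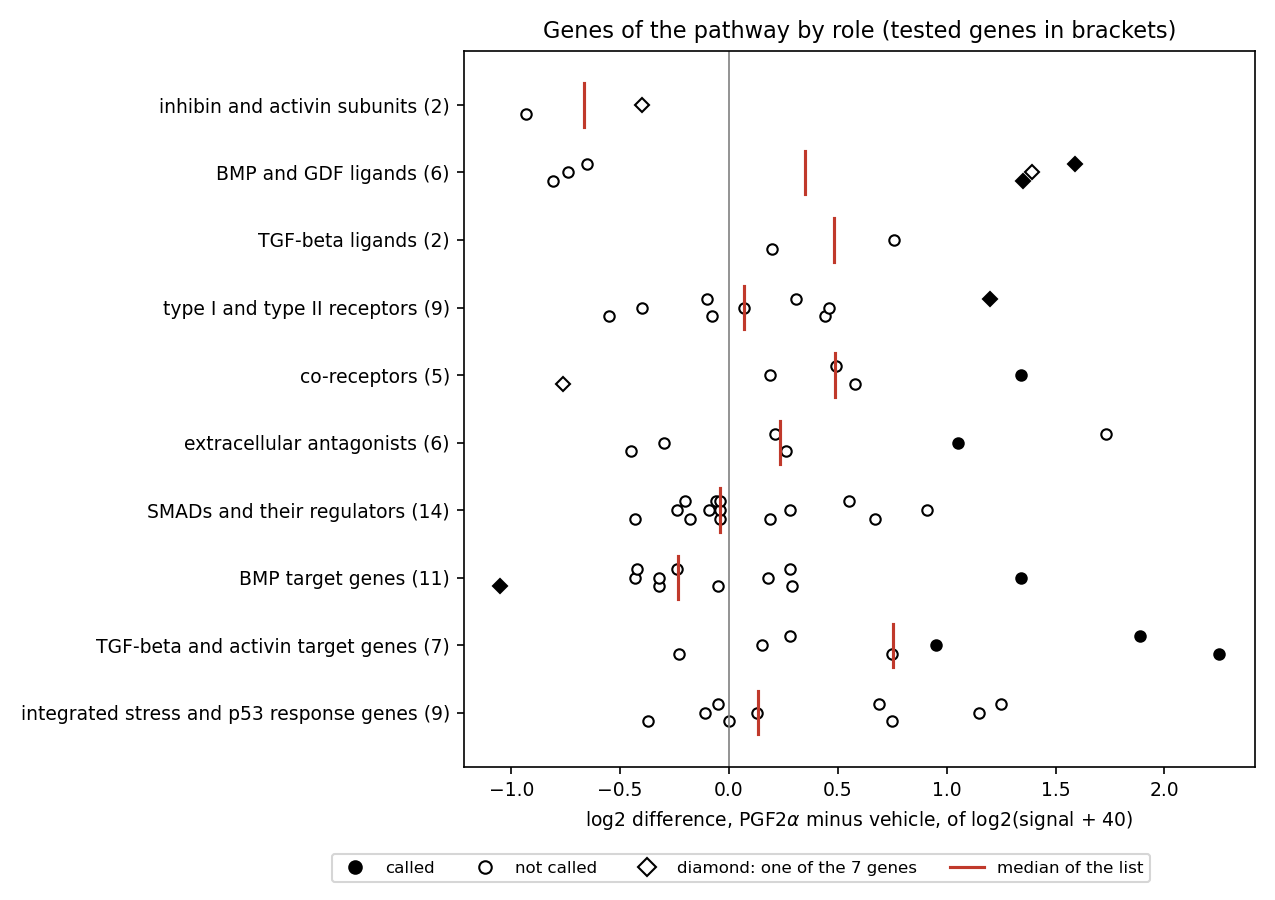
Log2 difference (PGF2alpha minus vehicle, log2(signal + 40) scale) of every tested pathway gene by role, with filled symbols for called genes, diamonds for the 7 genes described first and a red line at each list's median. Receptors, SMADs and BMP targets spread on both sides of 0, with medians of 0.0676, -0.0393 and -0.235, and the TGF-beta and activin targets have a median of 0.752.

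For each of the 7 genes the 3 genes most like it were named, by Pearson r of log2 values over the 6 arrays with its probe set of highest mean. These correlations lay between 0.986 and 0.998, were taken from 9980 genes, share the group difference and the arrays, and are given as a description. GDF15 was followed most closely by ABCA6, PCDH11X and PDE4A, BMP2 by MAP3K7CL, SRSF10 and TM4SF1, and BMP4 by NIBAN2, CBX6 and DEGS1. ACVR2B was nearest to MKNK1, COX10 and MYH9, TGFBR3 to EIF4ENIF1, ANAPC16 and CHCHD3, and INHA to ASB1, TNFAIP2 and COX15. The nearest to ID1 were LOC722935, the interferon-induced GTPase gene MX1 and C1H1orf52. Of these 21 genes PCDH11X (0.84, limma adjusted p = 0.0293) and MX1 (-1.82, adjusted p = 0.0267) were called.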

How the data were processed

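The deposited intensities are linear MAS5 signals per probe set, made by the authors with MAS5, as named per the labels' protocols. Their mean without the lowest and highest 2% was 499.9 on each array, and no further scaling was done. Other deposited files, the scanner experiment files, gave hybridisation times and no expression value. Arrays started within minutes of each other were taken as 1 run. Gene symbols are those of a possibly outdated platform annotation, with 1 symbol for 24969 probe sets. No genome and no sequences were used, so no coordinates are given. Detection calls were not used, so levels were not set against background.

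After 99 control probe sets were left out, limma 3.58.1 (R 4.3.3) was run on log2(signal + 40) (lmFit, eBayes with a variance trend, no covariate, two-sided, Benjamini-Hochberg over 26944 probe sets). The value 40 is close to the 25th percentile of all signals (39.6). The members and gene lists were chosen with earlier results of these data known, so no p was adjusted over them alone. Genes named from each list were those called and, up to 4 in all, those of smallest p. On simulated data for this comparison (200 of 26944 probe sets changed) 30% of the 2-fold and 73% of the 4-fold changes were found again. Of its 109 calls 6 were false, and data with no change gave 0 calls. The real arrays gave 1351 calls, against 200 changed probe sets in the simulation, so the simulated shares need not hold for them. The number of arrays limits the precision, and a difference that was not called is not shown to be absent. The alternatives changed the scaling (quantile normalization, or a common median), the pseudocount (10 or 160), the filter (none, or the 70th percentile of each array) and eBayes (no trend, or robust). They also weighted the arrays, blocked on the run and left out each array.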

Additional observations from a re-analysis of the deposited data

How the results depend on the processing

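The 11 probe sets gave 173 values under the alternatives, and 0 changed sign. Of these, 128 stayed on their side of the threshold, 38 lost a call and 7 gained one. Counts of called member probe sets moved from 6 to 1 without the filter on low signal and to 1 with eBayes without a trend, and ran from 0 to 7 when single arrays were left out. Over all probe sets the count moved from 1351 to 826 without the filter, where 52766 were tested, and to 669 without a trend, and ran from 223 without PGF2alpha replicate 2 to 1903 without PGF2alpha replicate 3. The adjustment over more probe sets is part of the first change, and other causes were not tested. CCN2 reversed from 1.89 to -0.26 and -0.41 in its other 2 probe sets, neither called. The filter at the 70th percentile tested 8 of the 11 probe sets and called 4. No paired analysis was possible because the groups share no replicate number. Low vehicle signals of ACVR2B, the second GDF15 probe set and MmuSTS.3214.1.S1_at of BMP2 limit how well their differences are known.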
